A study of Citrullus lanatus with 6 samples.

Results

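Chromosome 9 of watermelon (Citrullus lanatus) carries a row of 3 neighbouring genes annotated as N-acetylornithine deacetylase: AOD2 (ClCG09G012030), AOD3 (ClCG09G012020) and ClCG09G012040. They were taken by gene identifier, as 3 of the 19742 genes with a read count in leaf RNA. The choice was not blind to their change, since the study had reported AOD2 and AOD3 as induced by drought in these samples. The study asked how genes around citrulline metabolism respond to drought in vegetative tissue. Leaves of the cultivar Crimson Sweet came from 3 drought-stressed plants, in pots held at 35 ± 5% soil moisture, and from 3 well-watered control plants, in pots held at 95 ± 5%. Water was withheld from the drought pots from 28 days after transplanting according to the labels, while the study's methods give an earlier day. All plants were 89 days old and were sampled 8 days after the drought began (8 DAT), with 1 library per plant. One cultivar, one organ and one time point were sequenced, so the values hold for those alone.

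N-acetylornithine deacetylase removes the acetyl group from N-acetylornithine and so releases ornithine, the amino acid that ornithine carbamoyltransferase joins with carbamoyl phosphate to make citrulline. The acetylated part of the route starts from glutamate, which N-acetylglutamate synthase acetylates. Plants also have an acetyltransferase that hands the acetyl group of N-acetylornithine back to glutamate, and this cyclic step yields ornithine too. Citrulline is known as an abundant free amino acid of watermelon, both in fruit and in leaves under drought.

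The sequences at hand for these genes are the primers that the study designed for quantitative PCR, shown because they are the study's own means of telling AOD2 from AOD3. They are written 5′ to 3′ in lower case, with no base marked.
AOD2 forward: ttgtctccttcgttggaagtc
AOD2 reverse: gtcccacgacctcttagtttatc
AOD3 forward: agggagtttgccggttattc
AOD3 reverse: cattctgggcatggtatgtatct
The primers are 20 to 23 bases long. The longest stretch that the forward primers share is 3 bases, and the longest that the reverse primers share is 4 bases. Primers were compared only with each other and not with the other gene's transcript, so these lengths do not show how specific they are.

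In the Charleston Gray genome used by the authors, all 3 genes lie on the plus strand of chromosome 9. AOD3 comes first, at 13094295 to 13098888, with 1689 exonic bases, which are 36.8% of its span. AOD2 follows after a gap of 36.1 kb, at 13134974 to 13140976, with 1313 exonic bases or 21.9% of its span. ClCG09G012040 lies another 55.4 kb on, at 13196371 to 13204636, with 1485 exonic bases or 18.0% of its span. The row covers 110 kb, and no other gene with a count lies between its members. On the side of AOD3 the next annotated gene with a count is 175 kb away, whereas on the side of ClCG09G012040 it is only 2.34 kb away. ClCG09G012010, whose number comes just before that of AOD3, was listed at an FPKM of 0 in all 6 libraries.

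The libraries held 17907062 to 22351455 counts. On log2(CPM + 1) values the drought libraries correlated with each other at a Pearson's r of 0.964 to 0.980 across the tested genes, which are not independent replicates. Control replicates 1 and 3 reached 0.960, and control replicate 2 stood apart at 0.898 and 0.862. Of the 8 leaf markers, chlorophyll a-b binding proteins and rubisco activase, 6 were tested. EdgeR called 1 lower and 0 higher, beside 8.08% of all tested genes called lower and 5.31% higher. The 8 markers summed to 8615 to 11851 FPKM in drought leaves and 13011 to 47860 FPKM in control leaves. Most of that sum was 1 chlorophyll a-b binding gene, ClCG01G024370, in drought leaves, and rubisco activase went the other way, at 852, 1105 and 1263 FPKM in drought replicates 1, 2 and 3 and 437, 254 and 504 FPKM in control replicates 1, 2 and 3, without passing the test (log2 fold change 1.18, adjusted p = 0.132, edgeR). These markers were picked from genes that the study had listed as changed, so their direction is no result. The phloem marker phloem protein 2 stood at 40.3 to 67.5 FPKM in drought leaves and 116 to 181 FPKM in control leaves. It was called lower (log2 fold change -1.66, adjusted p = 0.0272, edgeR). The root marker root meristem growth factor 6, which was not tested, was at 0 in every drought library and at 0.360 to 3.13 FPKM in the control libraries. Both were picked from the study's lists of changed genes as well. The part of these differences in the results below was not tested, and in whole leaves fewer cells of a type and less RNA per cell cannot be told apart.

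AOD2 was among the most abundant leaf transcripts under drought and was scarcely read in well-watered leaves. Drought replicates 1, 2 and 3 held 70521, 27689 and 29907 AOD2 counts, against 23, 97 and 186 counts in control replicates 1, 2 and 3. The lowest drought library had 107 times the scaled level (CPM) of the highest control library, so the groups did not overlap. Every drought library was likewise above every control library for 19.9% of the tested genes. Per length, AOD2 stood at 2419.8, 943 and 1077 FPKM in the drought libraries and at 0.835, 4.13 and 6.48 FPKM in the control libraries. AOD2 rose by 8.38 ± 1.01 on the log2 scale (SE, n = 3 each), a 334-fold difference (adjusted p = 0.00600, edgeR quasi-likelihood test with Benjamini-Hochberg adjustment). In this comparison 13.4% of the 16318 tested genes were called at an adjusted p under 0.05, and 5.31% of the tested genes were called higher in drought, so that a call alone does not set AOD2 apart. By size its log2 fold change was the 18th highest of all tested genes and the 4th highest of the 1616 tested on chromosome 9. AOD2 was called under each of the 11 other settings tried, and without control replicate 3, the control library with most AOD2, the log2 fold change was 9.25, or 607-fold.

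AOD3 also rose, but to a modest level. It had 655, 875 and 820 counts in drought replicates 1, 2 and 3, against 259, 409 and 185 counts in control replicates 1, 2 and 3. The groups did not overlap, although drought replicate 1 was only 1.40 times the highest control library, control replicate 2, in CPM. For comparison, every drought library lay above every control library for 19.9% of the tested genes. Per length AOD3 stood at 17.5, 23.2 and 23.0 FPKM in the drought libraries and at 7.31, 13.5 and 5.01 FPKM in the control libraries. The log2 fold change was 1.19 ± 0.29 (SE, n = 3 each), a 2.28-fold difference (adjusted p = 0.0380, edgeR). This call sat near the threshold, with adjusted p from edgeR and DESeq2 of 0.00366 to 0.153 over the 11 other settings. It was lost with scaling by library totals (0.0707) and without control replicate 1 (0.126), control replicate 3 (0.0586), drought replicate 1 (0.0897), drought replicate 2 (0.126) or drought replicate 3 (0.153).

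ClCG09G012040 was nearly unread in both groups. It had 6, 0 and 0 counts in drought replicates 1, 2 and 3, and 4, 0 and 5 counts in control replicates 1, 2 and 3. The groups overlapped, and the gene fell below the filter on low counts, so no test was made. Its FPKM was 0.182, 0 and 0 in the drought libraries and 0.128, 0 and 0.154 in the control libraries. A difference between the groups was not detectable at this depth.

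**Figure D1:**
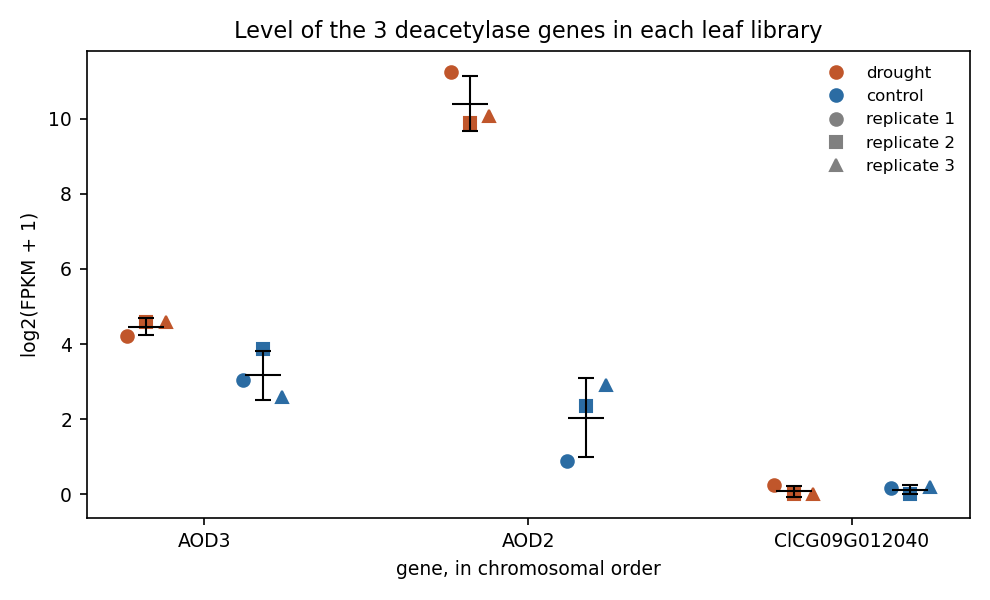
Levels of the 3 genes in each library, as log2(FPKM + 1) on the vertical axis, with drought plants left of control plants for each gene, 1 point per library and bars for the mean ± SD (n = 3 each). AOD2 spans from under 7 FPKM in every control leaf to over 943 FPKM in every drought leaf, AOD3 shifts by a small step and ClCG09G012040 stays near 0.

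The make-up of the deacetylase transcripts was not the same in the drought and control libraries. AOD2 made up 99.3, 97.6 and 97.9% of the summed FPKM of the row in drought replicates 1, 2 and 3, against 10.1, 23.4 and 55.6% in control replicates 1, 2 and 3. AOD3 made up 0.717, 2.40 and 2.09% in the drought libraries and 88.4, 76.6 and 43.0% in the control libraries. In drought leaves AOD2 was the main copy in all 3 plants, and in control leaves AOD3 was the main copy in plants 1 and 2, while in plant 3 AOD2 was ahead of it. The mean share of AOD2 was 98.3 ± 0.890% in drought and 29.7 ± 23.4% in control leaves (SD, n = 3 each), a difference of 68.6 percentage points (exact permutation test, two-sided, p = 0.1, below which 3 libraries against 3 cannot go). The control shares rest on few reads, as the 95% Wilson intervals of the AOD2 share of raw counts show, at 5.42 to 11.8% in control replicate 1, 16.0 to 22.8% in control replicate 2 and 44.4 to 54.5% in control replicate 3. These intervals cover counting error only, and they do not overlap between the 3 control plants.

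ClCG09G012040 made up 0.00747% of the summed FPKM in drought replicate 1, and 1.55 and 1.32% in control replicates 1 and 3. In the libraries where it had no count, its share was 0 of 28564 and 0 of 30727 row counts in drought replicates 2 and 3, which allows up to 0.0105 and 0.00976%, and 0 of 506 in control replicate 2, which allows up to 0.593%. Its mean shares did not pass the test either (exact permutation test, two-sided, p = 0.4).

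**Figure D2:**
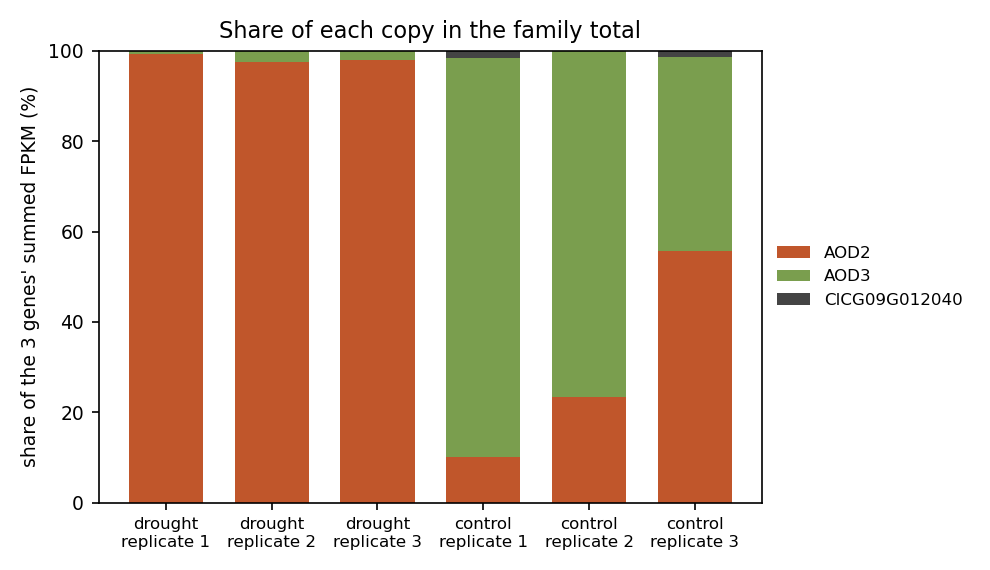
Share of each gene in the summed FPKM of the row, in percent, with 1 stacked bar per library and drought libraries left of control libraries. AOD2 fills 97.6% or more of every drought bar, whereas AOD3 holds 43.0 to 88.4% of the control bars.

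The ratio of AOD2 to AOD3 compares the neighbours within a library, where the scaling between libraries cancels. AOD2 was at 138, 40.7 and 46.9 times the FPKM of AOD3 in drought replicates 1, 2 and 3, against 0.114, 0.305 and 1.29 times in control replicates 1, 2 and 3. Every drought ratio was above every control ratio. The mean log2 ratio was 6.00 ± 0.97 in drought and -1.49 ± 1.76 in control leaves (SD, n = 3 each), a difference of 7.49 or 180-fold (exact permutation test, two-sided, p = 0.1, the smallest possible). Without control replicate 1 the difference was 6.68, and without control replicate 3 it was 8.43. How reads that fit both copies were counted is not given in the sources used here, and AOD3 had 0.929, 3.16 and 2.74 counts per 100 AOD2 counts in drought replicates 1, 2 and 3. The part of shared reads in the AOD3 difference was not tested.

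The plants with most AOD2 were not those with most AOD3. Among drought plants, replicate 1 had the highest AOD2 and the lowest AOD3, and among control plants, AOD2 was highest in replicate 3 and AOD3 in replicate 2. The coefficient of variation of CPM between plants was 55.5% in drought and 85.2% in control leaves for AOD2, and 15.4% in drought and 32.4% in control leaves for AOD3. The highest AOD2 library had 2.67 times the CPM of the lowest among drought plants and 8.47 times among control plants. In edgeR's fit the dispersion of AOD2 was 0.379, higher than that of 88.5% of tested genes, and that of AOD3 was 0.0843, higher than that of 33.0%. AOD2 thus varied more between plants than most genes of the leaf, and AOD3 did not.

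Summed over the row, deacetylase transcripts reached 1501 ± 813 FPKM in drought and 12.5 ± 4.75 FPKM in control leaves (SD, n = 3 each), a 120-fold ratio of means (exact permutation test, two-sided, p = 0.1, the smallest possible). Among the 23568 genes of the FPKM table, AOD2 ranked 21st, 91st and 83rd in drought replicates 1, 2 and 3, and 15342nd, 12178th and 9367th in control replicates 1, 2 and 3. AOD2 alone took 0.318, 0.124 and 0.141% of all counts in the drought libraries, against 0.000110, 0.000542 and 0.000851% in the control libraries. AOD3 ranked 5933rd, 4963rd and 4696th in drought replicates 1, 2 and 3, and 9403rd, 7846th and 10424th in control replicates 1, 2 and 3. In well-watered leaves AOD3 ranked above AOD2 in plants 1 and 2 and just below it in plant 3, whereas under drought AOD2 was far ahead in all 3 plants.

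Within the acetylated route to ornithine, the row was set beside the 5 other genes that the study listed for it. AOD2 made up 92.4, 84.0 and 85.5% of the summed FPKM of these 8 genes in drought replicates 1, 2 and 3, against 0.770, 2.62 and 4.28% in control replicates 1, 2 and 3. It was the most abundant of the 8 in every drought library, at 28.1, 10.8 and 12.9 times the next gene, and it was 7th, 7th and 6th of 8 in control replicates 1, 2 and 3. The next gene under drought was N-acetylornithine aminotransferase (AAT, ClCG09G003180), which makes the substrate of the deacetylases. AAT stood at 86.0, 87.0 and 83.4 FPKM in drought replicates 1, 2 and 3, and at 40.7, 35.1 and 47.9 FPKM in control replicates 1, 2 and 3. The groups did not overlap, as for 38.4% of all tested genes in either direction, yet AAT missed the threshold at 0.83 ± 0.27 on the log2 scale (SE, adjusted p = 0.0878, edgeR), and it passed by DESeq2 (adjusted p = 0.0392), with library totals (0.0310) and without control replicate 2 (0.0470) or control replicate 3 (0.0415) in edgeR.

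The balance between the deacetylases and the enzyme that feeds them differed between the groups. The summed FPKM of the row was 28.3, 11.1 and 13.2 times that of AAT in drought replicates 1, 2 and 3, and 0.203, 0.502 and 0.243 times in control replicates 1, 2 and 3. Deacetylase transcripts thus outnumbered AAT in every drought leaf and fell short of it in every control leaf (difference in mean log2 ratio 5.78, exact permutation test, two-sided, p = 0.1, the smallest possible with n = 3 each).

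The earlier steps of the route did not pass the test. N-acetylglutamate synthase (ClCG01G017650), the first step, had a log2 fold change of 0.11 (adjusted p = 0.853), and N-acetylglutamate kinase (ClCG08G012830), which phosphorylates the product, one of -0.22 (adjusted p = 0.649), both from edgeR. N-acetyl-gamma-glutamyl-phosphate reductase (ClCG09G017590), the step after the kinase, was at -1.08 ± 0.55 (SE, adjusted p = 0.226, edgeR). N-acetylornithine-glutamate acetyltransferase (ClCG10G020940), the enzyme of the cyclic step, was at -0.36 (adjusted p = 0.529, edgeR). Of the 5 route genes outside the row edgeR called 0 in either direction, beside 13.4% of all tested genes. At an unadjusted p under 0.05 there was 1 (AAT), where 31.5% of all tested genes passed. DESeq2 called 1 (AAT), where it called 1635 higher and 2485 lower of all 16318 tested genes. For 5 genes such counts do not set the route apart from other genes.

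**Figure D3:**
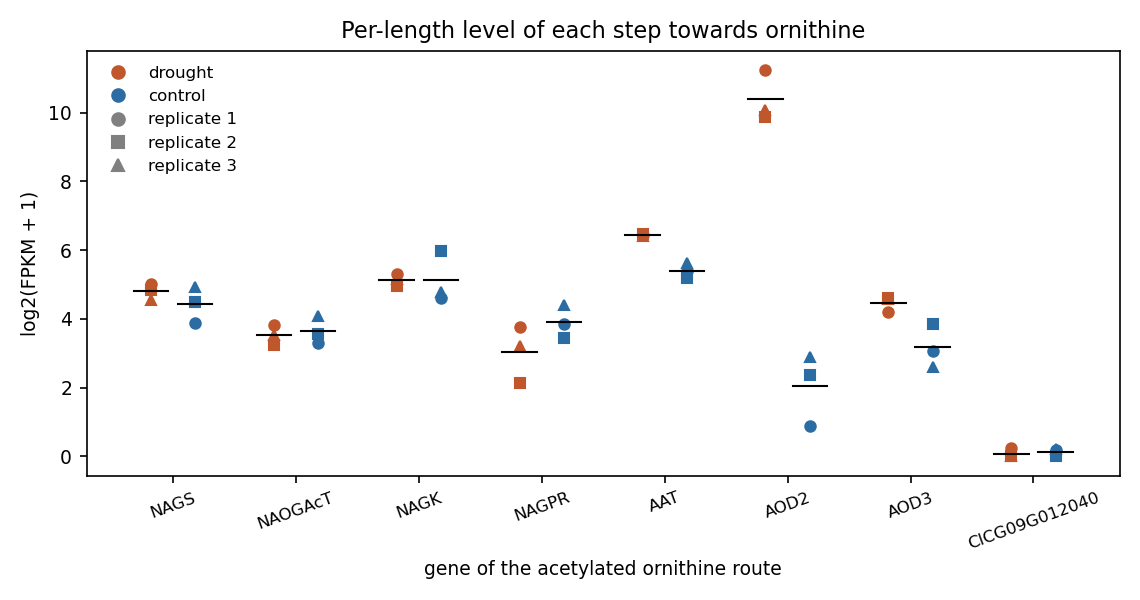
Levels of the 8 genes of the acetylated ornithine route, as log2(FPKM + 1) on the vertical axis, with 1 point per library, drought left of control for each gene and a black line at the mean (n = 3 each). AOD2 is above all others in drought leaves and near the bottom in control leaves, and the 4 earlier or cyclic steps overlap between the groups.

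Beyond ornithine, the study listed 28 genes of citrulline, arginine, ornithine and proline metabolism, the row included, having chosen them on these samples, so the list is no independent evidence. Outside the row 24 of 25 were tested, and 1 rose and 2 fell, against 13.4% of all tested genes. The one that rose was the gene of the carbamoyl phosphate synthase large subunit (ClCG09G021680, CPS2), whose enzyme supplies the other substrate of citrulline synthesis. CPS2 stood at 128, 99.6 and 96.9 FPKM in drought replicates 1, 2 and 3 and at 18.6, 28.2 and 28.9 FPKM in control replicates 1, 2 and 3, a difference of 1.91 ± 0.30 on the log2 scale (SE, adjusted p = 0.0115, edgeR). Every drought library of CPS2 lay above every control library, as for 19.9% of the tested genes. Its call was lost without control replicate 1 (adjusted p = 0.0523), drought replicate 1 (0.0576) or drought replicate 3 (0.0585). Argininosuccinate synthase 2 (ASS2, ClCG03G003670), a copy of the enzyme that uses citrulline, fell by 2.30 ± 0.30 on the log2 scale (SE, adjusted p = 0.00800, edgeR). The more abundant copy ASS1 (ClCG06G017780), at a mean of 157 FPKM in drought and 420 FPKM in control leaves, missed the threshold (log2 fold change -1.70, adjusted p = 0.112, edgeR). So did ASS3 (ClCG03G003660, log2 fold change -1.23, adjusted p = 0.151, edgeR).

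ASS2 stood at 5.72, 3.66 and 3.74 FPKM in drought replicates 1, 2 and 3 and at 20.2, 16.6 and 19.2 FPKM in control replicates 1, 2 and 3. Its call was lost only without drought replicate 3 (adjusted p = 0.0507, edgeR) among the settings tried. The other gene that fell was a pyrroline-5-carboxylate synthase (ClCG11G006600), of proline synthesis, at 7.12, 6.21 and 8.45 FPKM in drought replicates 1, 2 and 3 and at 14.0, 47.0 and 10.3 FPKM in control replicates 1, 2 and 3 (log2 fold change -1.76 ± 0.46, SE, adjusted p = 0.0477, edgeR). That call was lost with library totals (adjusted p = 0.0879), with the replicate number as a block (0.0640) and without control replicate 1 or any 1 drought library (0.0861 to 0.163). Without control replicate 2, its highest library, ClCG11G006600 was still called but at a log2 fold change of only -1.05 (adjusted p = 0.0159, edgeR). Ornithine carbamoyltransferase (OTC, ClCG05G018820), which takes up ornithine to make citrulline, was at 66.2, 57.5 and 57.7 FPKM in drought replicates 1, 2 and 3 and at 17.5, 38.6 and 40.6 FPKM in control replicates 1, 2 and 3, and it missed the threshold (log2 fold change 0.72, adjusted p = 0.190, edgeR). The 24 tested genes had a median log2 fold change of -0.21, beside -0.03 over all tested genes, with 11 above 0 and 13 below. AOD2, at 8.38, and AOD3, at 1.19, therefore lay on the higher side of a list whose other members were about evenly divided.

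None of the tested genes around the row on chromosome 9 was called higher in the full comparison. Of the 10 annotated genes with a count on each side, which span 1181 kb with the row, 17 were tested. Of these edgeR called 0 higher and 1 lower, beside 5.31% of all tested genes called higher and 8.08% lower. For 17 genes such counts are close to those shares, so they do not set the neighbours apart from other genes. With no adjustment of p, 3 were lower and 0 higher at 0.05, where 31.5% of all tested genes passed. DESeq2 also called 0 higher and 3 lower, where it called 1635 higher and 2485 lower of all 16318 tested genes. Their log2 fold changes ran from -1.86 to 0.72 with a median of -0.09. Leaving out control replicate 2 or control replicate 3 gave 1 call higher each. Over all genes 1884 of 16707 tested were then called higher without control replicate 2, and 865 of 16766 without control replicate 3. Chromosome 9 as a whole had 220 of 1616 tested genes called, or 13.6%.

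The nearest neighbour is ClCG09G012060, on the same strand after ClCG09G012040. It had 14.5, 19.0 and 16.5 FPKM in drought replicates 1, 2 and 3 and 17.9, 33.2 and 14.0 FPKM in control replicates 1, 2 and 3, and it missed the threshold at -0.50 ± 0.24 on the log2 scale (SE, adjusted p = 0.205, edgeR). On the other side, ClCG09G012000 was scarcely read, with 0.204, 0.464 and 0.736 FPKM in drought replicates 1, 2 and 3 and 0.494, 0.253 and 0.326 FPKM in control replicates 1, 2 and 3 (log2 fold change 0.17 ± 0.73, SE, adjusted p = 0.899, edgeR). In FPKM the groups of both neighbours overlapped, whereas in TMM-scaled CPM those of ClCG09G012000 did and every drought library of ClCG09G012060 lay below every control library, as for 18.5% of the tested genes. Neither had a positive step of the size seen at AOD2. The one that fell was ClCG09G012120, annotated as aluminum-activated malate transporter 12 and 187 kb from AOD2, at 18.7, 11.5 and 12.1 FPKM in drought replicates 1, 2 and 3 and 53.5, 30.5 and 43.4 FPKM in control replicates 1, 2 and 3. It fell by 1.82 ± 0.36 on the log2 scale (SE, adjusted p = 0.0231, edgeR), and the call was lost without control replicate 1 or any 1 drought library (adjusted p = 0.0633 to 0.109).

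**Figure D4:**
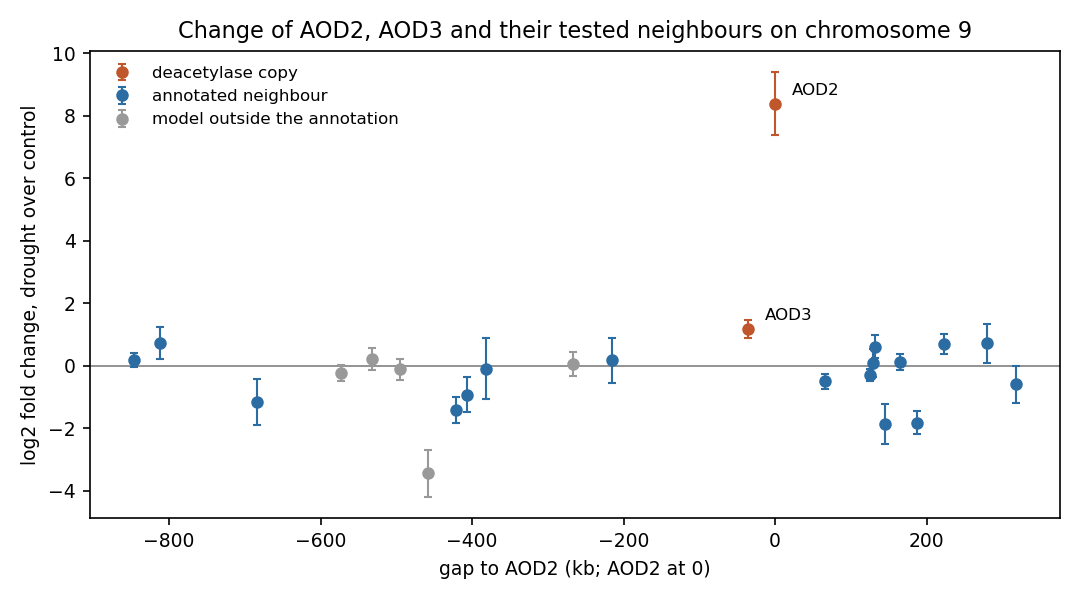
Log2 fold change of drought over control (vertical axis, ± SE, edgeR, n = 3 libraries each) for the tested genes around the row, against their distance from AOD2 in kb (horizontal axis). AOD2 at 8.38 stands alone, AOD3 lies at 1.19, and the annotated neighbours lie between -1.86 and 0.72.

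The genes most like AOD2 and AOD3 over the 6 libraries were found by the Euclidean distance between log2(FPKM + 1) values, each centred on the gene's own mean, and are described with no test. For AOD2 the nearest was a glycine-rich protein (ClCG06G012810, distance 2.01), at 256, 349 and 301 FPKM in drought replicates 1, 2 and 3 and listed at 0 in all control libraries. Next came threonine dehydratase (ClCG04G009600, distance 2.22), of isoleucine synthesis, galactinol synthase 6 (ClCG10G011650, distance 2.40), of raffinose sugar synthesis, and the small heat shock proteins Novel00340 (class I, distance 2.69) and ClCG05G018130 (class II, distance 2.77). These 5 lie on chromosomes other than 9, and each was above 241 FPKM in every drought library and below 6 FPKM in every control library. Their likeness to AOD2 follows from how they were picked. The choice depended on low values, since with a pseudocount of 0.1 only 2 of the 5 were again among the nearest.

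For AOD3 the nearest genes, at shorter distances, were an isochorismatase (ClCG02G014040, distance 0.15), ClCG08G017870 (distance 0.20), a pentatricopeptide repeat protein (ClCG06G005750, distance 0.21), transmembrane protein 56 (ClCG11G016570, distance 0.25) and ClCG02G006680 (distance 0.25). The isochorismatase stood at 33.2, 42.1 and 42.8 FPKM in drought replicates 1, 2 and 3 and at 12.8, 25.0 and 10.5 FPKM in control replicates 1, 2 and 3. In the control plants that is the order of AOD3, as can be foreseen for a gene picked as the nearest over the same libraries. The 5 genes nearest to AOD2 and the 5 nearest to AOD3 had no gene in common. That follows from the distance, which keeps the size of a change, and AOD2 and AOD3 changed by very unlike sizes, so it is no result.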

How the data were processed

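RNA of 6 leaf libraries was analysed from the tables that the authors deposited. According to the study's methods and the processing notes, reads were trimmed and placed on the genome of the cultivar Charleston Gray, with TopHat 2.0.12 on Bowtie 2.2.3 and HTSeq 0.6.1 named in one place and fastp, HISAT2 2.1.0 and featureCounts in the other. How reads that fit several genes were treated is not given in the sources used here. The library kit named does not mark strand, so reads of genes that overlap on opposite strands cannot be told apart. How alike the copies of the row are in sequence was not analysed here. The authors deposited read counts per gene, counts divided by 1 size factor per library (a signal, not used for tests), and FPKM, which they scaled by gene length in bases and library total. Also deposited were the results of a comparison made by the authors, as log2 fold changes with p-values, which were left unused. Columns of drought libraries carry another prefix than the labels and were matched by replicate number.

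Counts were tested with edgeR 4.0.16 in R 4.3.3 (TMM scaling, filterByExpr at its default minimums, 10 for the count and 15 for the total, quasi-likelihood test, condition as the single factor, two-sided, Benjamini-Hochberg adjustment, threshold 0.05). The test covered 16318 of 19742 genes, at 17907062 to 22351455 counts per library. DESeq2 1.42.0, RLE scaling, library totals, no filter, the replicate number as a block and leaving out each library were tried as alternatives. The edgeR step was tested on simulated data with a lower dispersion than that of the libraries (common dispersion 0.172). The DESeq2 step was not tested in this way. CPM are counts scaled to a common TMM-adjusted total of 1000000. Shares and ratios within the row were compared with an exact permutation test over the 20 assignments of libraries (scipy 1.17.1), and levels between genes were compared as FPKM only. Intervals are 95% Wilson intervals, and a count of 0 was taken to allow 3 counts.

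The text names the 3 genes of the row, listed pathway genes that passed the test, all genes of the acetylated ornithine route, neighbours that passed or lie next to the row, and the 5 genes nearest to AOD2 and to AOD3. The members, lists and tests were chosen with earlier results of these data known. Phloem protein 2, OTC, ASS1, ASS3 and the gene models named in the closing section were added for context. Of the 4 genes that the study assessed as references for quantitative PCR, it used actin and alpha-tubulin 5, with log2 fold changes of -0.63 and -0.44. All 4 were below 0, with 0 called by DESeq2, 0 by edgeR and 0 at 0.05 without adjustment of p. Without control replicate 2, edgeR called actin and alpha-tubulin 5 lower, and no other left-out library gave a call among the 4.

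Libraries with the same replicate number deviated from their group means together (r = 0.148, 0.430 and 0.130 across genes, each above the bound of 0.1), so the numbers were taken to pair the libraries in the alternative with the block, although neither the labels nor the methods name a shared block and the correlation of control replicate 3 with drought replicate 1 was higher (0.303). Replicates of a group all differed by more than sampling noise (lowest chi-square per degree of freedom 43.6).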

Additional observations from a re-analysis of the deposited data

How the results depend on the processing

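Over all genes, 866 were called higher and 1319 lower. DESeq2 called 1635 higher and 2485 lower, library totals gave 935 higher and 858 lower, and leaving out 1 library gave 150 to 1884 higher and 164 to 2473 lower. Of the calls, 39.6% were higher in drought, against 52.1% with library totals, which moved the median log2 fold change by 0.16. Relative to the median of all genes AOD2 stood at 8.41 with TMM and 8.46 with library totals, and AOD3 at 1.22 with TMM and 1.16 with library totals. The AOD2 log2 fold change was 7.84 to 9.25 with 1 library left out and 8.53 with the replicate block. For AOD3 it was 0.99 to 1.47 with 1 library left out, 1.30 with library totals (adjusted p = 0.0707, edgeR) and 1.22 with the replicate block (adjusted p = 0.0355). The 28 listed genes had 3 called higher and 2 lower. DESeq2 called 7 higher, library totals and the replicate block 1 lower each, and leaving out 1 library gave 1 to 10 higher and 0 to 5 lower. Of the neighbours 1 was called lower. DESeq2 called 3, the replicate block 2, a window of 5 genes a side 0, one of 20 genes a side 2, and leaving out 1 library 0 to 3, with 0 to 1 higher. The difference in AOD2 share was 58.8 to 81.5 percentage points and in the log2 ratio of AOD2 to AOD3 6.68 to 8.43 with 1 library left out. Among genes above 0 the mean rank of AOD2 in control leaves was in the top 68.5%, against 52.2% among all genes, and that of AOD3 in the top 28.8% in drought and 51.4% in control leaves, against 22.1% and 39.1%. With a pseudocount of 0.1, 2 of the 5 genes nearest to AOD2 remained. With library totals the balance of calls over all genes turned to more higher than lower, and none of the other results reversed. The cause of each shift was not tested. Depth limits ClCG09G012040, with 6 counts over the drought and 9 over the control libraries.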

Other observations

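The deposited table also holds 7 gene models outside the annotation in the same stretch of chromosome 9, of which 5 were tested. Novel00832, described in the table as an abscisic acid receptor PYR1-like, lies 418 kb before AOD3 and had 18, 9 and 11 counts in drought replicates 1, 2 and 3, against 171, 30 and 127 counts in control replicates 1, 2 and 3. It fell by 3.43 ± 0.75 on the log2 scale (SE, adjusted p = 0.0297, edgeR), and the call was lost without control replicate 1 or 3 or any 1 drought library (adjusted p = 0.0538 to 0.121). Novel00833, 22.5 kb after ClCG09G012040, had 0 counts in all 3 drought libraries and in control replicates 1 and 2, and 64 counts in control replicate 3.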
